A study of Caenorhabditis elegans with 24 samples.

Results

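The early descendants are the 10 small RNA libraries, of 24 in the series, made from animals labelled as wild-type descendants of meg-3 meg-4 mutants at generations F3, F4, F5, F6 and F7, with 2 libraries in each generation. They were chosen by these labels alone and compared, pooled with equal weight for each generation, with the 2 wild-type control libraries. Per the labels the descendants are wild type and stem from an outcross of animals mutant in both meg-3 and meg-4 (meg-3/4 below). The other groups used for comparison were the 2 libraries of meg-3/4 animals and the 8 libraries of later descendants (F10, F15, F20 and F25). Every library came from whole young adults of a synchronized population fed E. coli OP50 at 20 °C. The remaining 2 libraries, of hrde-1; meg-3/4 animals, entered only the filter of features and the estimate of spread. The labels call the libraries biological replicates and do not say whether the numbers follow separate lines of descent. In comparisons of groups, p-values measure the spread between replicate libraries within 12 groups, over all 24 libraries. They do not count the spread between generations.

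In C. elegans, siRNAs are copied from target transcripts by RNA-dependent RNA polymerases, so they lie antisense to the gene they target, and Argonaute proteins that carry them can silence that gene. Germ granules, the condensates around germline nuclei, hold much of this machinery, and MEG-3 and MEG-4 are disordered proteins needed to assemble them in the embryo. Some siRNAs are passed to progeny through the germline, in part by the nuclear Argonaute HRDE-1. A difference between wild type and descendants in which both genes are restored therefore bears on how long altered siRNA levels outlast the mutation in the ancestors. The values below are reads antisense to each annotated gene, scaled by 1 factor for each library and called normalized counts. They measure small RNAs against a gene, not the gene's own transcript, and in whole animals fewer cells of a type and less RNA per cell cannot be told apart.

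Recovered reads ranged from 395527 to 3420345 over the early descendants, and the wild-type libraries held 2926820 and 2884130. F4 replicate 2 stood apart, with 395527 reads against at least 2127219 in the other 9 early libraries. In it 1 read is worth 4.99 normalized counts, against 0.510 to 0.949 in the other 9, and 5.59% of the kept features have no read. A feature without a read there can lie anywhere up to 15.0 normalized counts (95% limit, 3 reads, counting error only). Leaving it out changed 16 of the 60 counts of higher or lower members in the gene lists below, by 2 members at most. Of the 122 features named, 101 of them called against wild type, rrf-2 and cdk-14 then lost that call, col-111 and ZK185.9 gained one, and no log2 change moved by more than 0.47. Small RNAs against meg-3 had a lowest level of 52.9, a median of 66.7 and a highest of 84.8 normalized counts over the early descendants, against 7.74 and 7.86 in meg-3/4 and 42.8 and 64.2 in wild type, and those against meg-4 had a lowest level of 71.1, a median of 118 and a highest of 150.4, against 12.17 and 3.93 in meg-3/4 and 54.99 and 74.2 in wild type. For both genes all 10 early libraries lay above both mutant libraries. For hrde-1 the early descendants had a lowest level of 1299.6, a median of 1417 and a highest of 1878, against 1351 and 1359.9 in wild type, and it was not called (log2 change 0.12).

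Small RNA levels of the early descendants differed from wild type at many features, more often by loss than by gain. Of 8869 features that reached 10 normalized counts in 2 or more of the 24 libraries, 2381 passed limma at an adjusted p of 0.05 (26.8%), 764 of them higher in the early descendants (8.61%) and 1617 lower (18.2%). With a log2 change of at least 1, 149 features were higher (1.68%) and 814 lower (9.18%). All 10 early libraries lay above both wild-type libraries at 1105 features (12.5%) and below both at 1850 (20.9%), and 653 (7.36%) and 1479 (16.7%) of these were called. Of 4713 features with a wild-type mean of 50 or more, 27 had a descendant mean under 10% of it and 511 under 50%. Of 4324 with a descendant mean of 50 or more, 15 had a wild-type mean under 10% of it and 122 under 50%. Losses were the majority of calls in protein-coding genes (661 higher and 1474 lower of 7803) and pseudogenes (55 and 101 of 408). At non-coding RNA features calls ran the other way (31 higher and 12 lower of 304, median log2 change 0.31). Their share higher, 10.2%, was near the 8.61% of all features, and their share lower was 3.95%, against 18.2%. Of the 20 kept features that lie opposite microRNA genes limma called 0, at a median of 0.27 (3 at an unadjusted p under 0.05, and 0 by edgeR or DESeq2). On each chromosome 7.52% to 9.98% of features were higher and 17.1% to 19.2% lower.

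**Figure D1:**
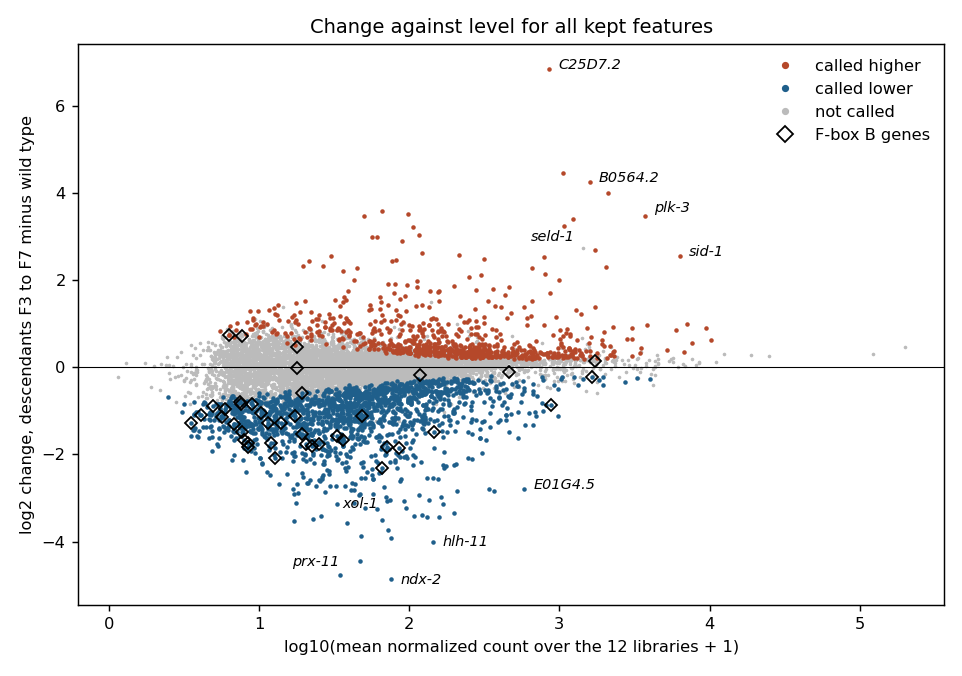
Each point is 1 of the 8869 kept features, with its mean normalized count over the 12 libraries compared on a log10 axis and its log2 change (early descendants minus wild type) on the other; called features are coloured and open diamonds mark the F-box B genes. Most F-box B genes lie below 0, the pseudogene C25D7.2 has the highest change, and seld-1 lies high but was not called.

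The split between gains and losses rests on the scaling, and the number of calls also on the small wild-type group. Losses stayed the majority of calls without either wild-type library. Removal of 1 wild-type library leaves 1, which widens the standard error of every comparison with wild type. A call lost that way, here and below, does not by itself show that the change became smaller. With library totals made equal, the median change over all features moved to −0.11 and 306 features were higher and 1943 lower, and with quantile normalization it moved to 0.11 and 1333 were higher and 1376 lower. Of the calls, 67.9% were lower in the fit reported here, 86.4% with equal totals and 50.8% with quantile normalization. On removal of wild-type library 1 the counts were 292 higher and 1011 lower, and on removal of wild-type library 2 they were 278 and 936. Without F4 replicate 2 they were 865 and 1686, and 2322 of the 2381 calls were made with the same direction in both fits.

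**Figure D2:**
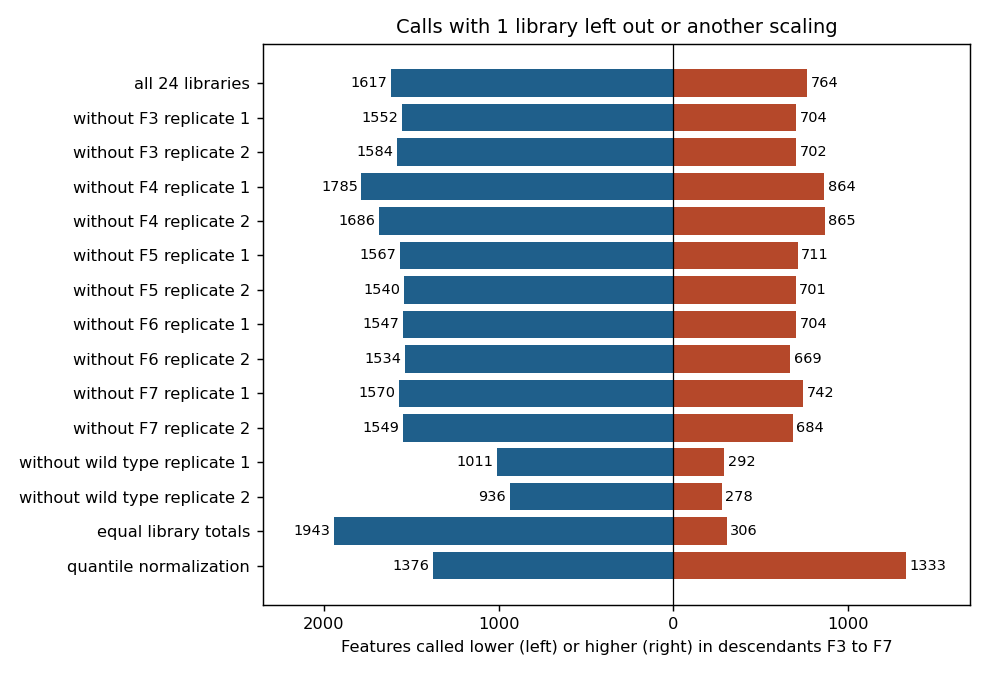
Bars give the number of features called higher (right) or lower (left) in the early descendants than in wild type with all 24 libraries, with 1 library left out, and under 2 other scalings. Leaving out 1 descendant library gave 669 to 865 higher and 1534 to 1785 lower, and leaving out 1 wild-type library lowered both counts most.

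Among called features that averaged 50 normalized counts or more and did not overlap between the groups, the 10 largest gains were at a pseudogene, at 2 named kinase genes and at genes known by sequence names only. Small RNAs against the pseudogene C25D7.2 (chromosome V, 15037795 to 15038835, WBcel235) had a lowest level of 807, a median of 1046 and a highest of 1220.2 normalized counts, against 1.16 and 7.59 in wild type, which is 2 and 13 reads (log2 change 6.85, SE 0.30, adjusted p = 3.92e-12). Every descendant library stood far above both wild-type libraries. B0564.2 (chromosome IV, 13107659 to 13111500) had a lowest level of 1042, a median of 1829.8 and a highest of 3041, against 82.2 and 96.9 in wild type (log2 change 4.26, SE 0.15, adjusted p = 3.68e-13). It is annotated downstream of rde-11 on the same strand (chromosome IV, 13105200 to 13106927). F26D11.1, which overlaps natb-1 on the opposite strand, had a lowest level of 646, a median of 1267 and a highest of 2366, against 43.4 and 54.3 in wild type (log2 change 4.46, SE 0.30, adjusted p = 2.35e-09). T03D3.5 had a lowest level of 1919, a median of 2443 and a highest of 3361, against 134 and 161 (log2 change 4.02, SE 0.20, adjusted p = 2.24e-11). That these features do not overlap wild type follows from the criteria.

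The named genes among the 10 largest gains were the polo-like kinase gene plk-3 and tpk-1, which encodes thiamine pyrophosphokinase, the enzyme that makes the cofactor thiamine pyrophosphate. For plk-3 the early descendants had a lowest level of 3609.7, a median of 4308 and a highest of 5132 normalized counts, against 391 and 385 in wild type (log2 change 3.48, SE 0.21, adjusted p = 5.01e-10), and for tpk-1 a lowest level of 1041, a median of 1230.4 and a highest of 1467, against 112 and 142 (log2 change 3.25, SE 0.13, adjusted p = 1.55e-12). Both held narrow ranges over the 10 descendant libraries. C15F1.8 had a lowest level of 1211, a median of 1477 and a highest of 1710.3, against 141 and 123 in wild type (log2 change 3.41). The remaining 3 of the 10 were weakly covered in wild type. Y38C1AB.5 had a lowest level of 34.9, a median of 88.7 and a highest of 114.997, against 0.579 and 2.34 (log2 change 3.60), ZC190.8 a lowest level of 47.3, a median of 115.1 and a highest of 190.5, against 3.47 and 4.67 (3.52), and Y69H2.10 a lowest level of 84.1, a median of 128 and a highest of 159, against 5.79 and 12.3 (3.22). The lowest of the 10 gains, at Y69H2.10, was 3.24 without F4 replicate 2. It was 2.88 with wild-type library 1 removed and 3.56 with wild-type library 2 removed.

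**Figure D3:**
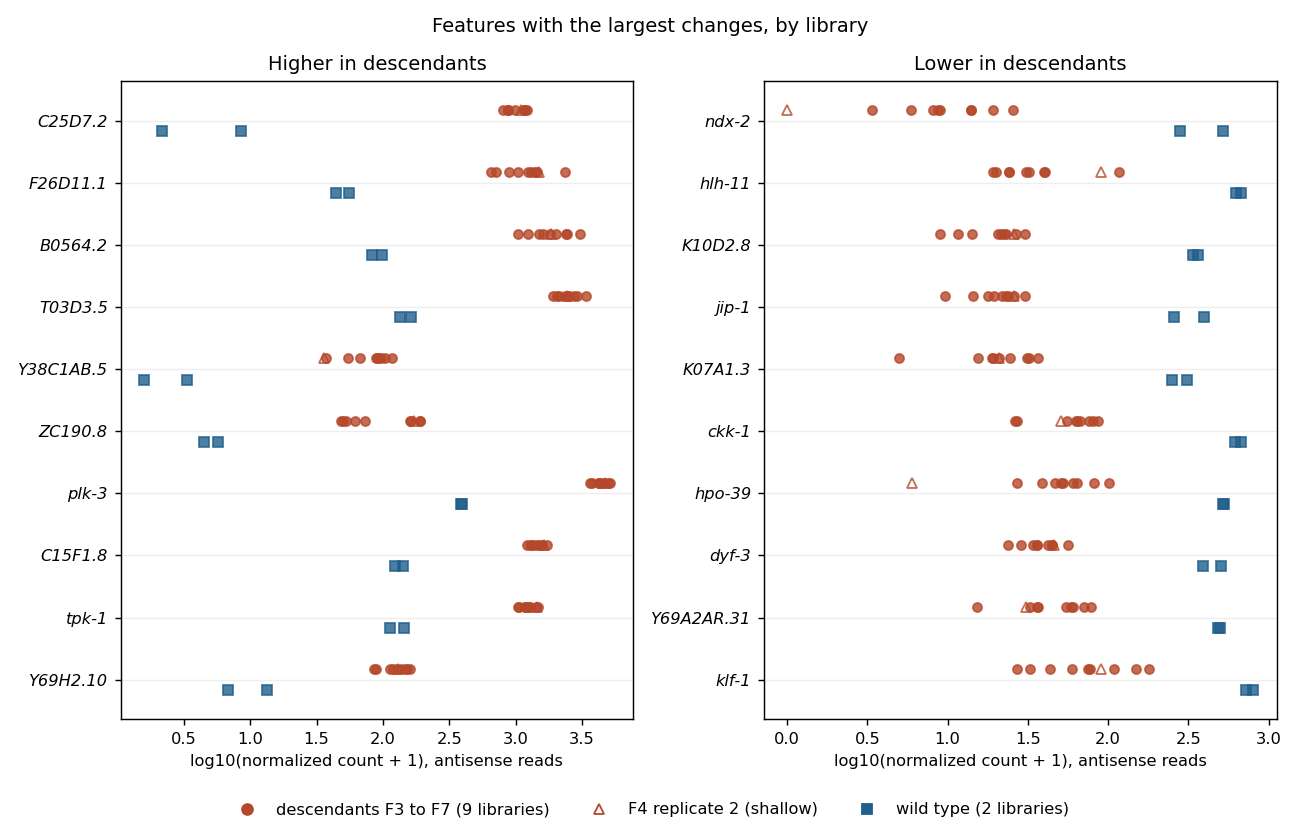
Levels in each library, as log10(normalized count + 1), of the 10 features with the largest gains and the 10 with the largest losses among called features averaging 50 normalized counts or more without overlap between groups. The early descendants (circles, with the shallow F4 replicate 2 as a triangle) sit above wild type (squares) in the left panel and below it in the right panel, as that criterion requires.

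The 10 largest losses by the same criteria included a nudix hydrolase gene and 2 transcription factor genes. At ndx-2, which encodes a nudix hydrolase, the descendants had a lowest level of 0, a median of 7.81 and a highest of 24.7 normalized counts, against 278 and 522 in wild type (log2 change −4.87, SE 0.31, adjusted p = 9.9e-10). The 0 is F4 replicate 2, where the limit is 15.0, and the highest descendant library was far below the lower wild-type one. At hlh-11, a basic helix-loop-helix transcription factor gene, they had a lowest level of 18.1, a median of 30.4 and a highest of 115.3, against 627 and 671 (log2 change −4.01, SE 0.42, adjusted p = 7.64e-07). At klf-1, a Krüppel-like zinc finger gene, they had a lowest level of 25.98, a median of 75.3 and a highest of 178, against 726 and 803 (log2 change −3.34, SE 0.44, adjusted p = 1.16e-05). Both genes ranged widely within the descendants. At klf-1 the 5 higher libraries were those of replicate 2, and at hlh-11 the highest were replicate 2 of F3 and F4.

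Among the other 7 were jip-1, ckk-1 and dyf-3. jip-1, a scaffold of JNK signalling, had a lowest level of 8.66, a median of 21.3 and a highest of 29.4 normalized counts, against 258 and 392 in wild type (log2 change −3.73, SE 0.31, adjusted p = 4.89e-08). ckk-1, which encodes a calmodulin-dependent kinase kinase and overlaps C05H8.3 on the opposite strand, had a lowest level of 25.3, a median of 62.6 and a highest of 85.4, against 614 and 671 (log2 change −3.43, SE 0.14, adjusted p = 9.32e-13). dyf-3, needed to build sensory cilia, had a lowest level of 22.9, a median of 38.2 and a highest of 55.1, against 388 and 505 (log2 change −3.40, SE 0.16, adjusted p = 1.05e-11). In these 3 genes the highest descendant library was well below the lower wild-type library. The other 4 were K10D2.8 (log2 change −3.91), K07A1.3 (−3.52), which overlaps dut-1 on the opposite strand, hpo-39 (−3.43) and Y69A2AR.31 (−3.39), and their descendant medians of 20.95, 19.9, 50.4 and 44.5 compare with a lower wild-type library of 338, 249, 517 and 482. Without F4 replicate 2 the change at hpo-39 was −3.16 and at hlh-11 −4.22. All 20 calls of largest gain and loss were kept without either wild-type library.

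Among genes of the small RNA pathways, large changes were few, and the strongest were gains at 2 genes of RNAi uptake and amplification. sid-1 encodes the channel that imports double-stranded RNA, and the early descendants had a lowest level of 6176, a median of 7377 and a highest of 8449.7 normalized counts, against 1221 and 1245 in wild type (log2 change 2.57, SE 0.10, adjusted p = 9.32e-13). rde-11 encodes a factor needed for amplified RNAi, and they had a lowest level of 1189.6, a median of 2451 and a highest of 3852, against 453 and 437 (log2 change 2.32, SE 0.22, adjusted p = 2.22e-07). All 10 descendant libraries exceeded both wild-type libraries at both genes. Of the 15 kept members of the list of RNAi uptake and initiation genes, these 2 were higher and 2 were lower (13.3% each). Over all features 8.61% were higher and 18.2% lower. The median change of the list was 0.05, against 0.01 over all features. The lower ones were rde-8, a ribonuclease gene, with a lowest level of 20.0, a median of 31.1 and a highest of 46.6, against 63.7 and 62.5 (log2 change −0.89), and rde-4, a double-stranded RNA binding partner of Dicer (log2 change −0.38), named after its value was seen. The lower count was 1 on removal of either wild-type library. Without F4 replicate 2 the changes at sid-1 and rde-11 were 2.55 and 2.30.

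The RNA-dependent RNA polymerases and mutator proteins, which synthesize secondary siRNAs, held 2 gains and 3 losses among 13 genes (median 0.10). These are 15.4% and 23.1%, against 8.61% and 18.2% of all features. smut-1, a helicase gene of the mutator complex that overlaps crt-1 on the opposite strand, had a lowest level of 29.9, a median of 43.8 and a highest of 49.5 normalized counts, against 97.8 and 95.8 in wild type (log2 change −1.13, SE 0.15, adjusted p = 1.28e-05). nyn-2, a ribonuclease-domain gene, had a lowest level of 35.1, a median of 50.2 and a highest of 60.01, against 93.8 and 86.4 (log2 change −0.84, SE 0.17, adjusted p = 0.000974). Both lay below wild type in 10 of 10 descendant libraries. rrf-2, an RNA-dependent RNA polymerase gene, had a lowest level of 122, a median of 159 and a highest of 225, against 223 and 224 (log2 change −0.47, SE 0.17, adjusted p = 0.0478). The highest descendant library lay above wild type there, and the call was lost without F4 replicate 2 (adjusted p = 0.0649), without any 1 of 6 other descendant libraries (0.0517 to 0.0736) and on removal of wild-type library 1 (0.217) or 2 (0.234). The gains were nyn-1 (log2 change 0.35) and mut-16, the scaffold of mutator foci (0.42), and with equal library totals 0 of the 13 were called higher. On removal of wild-type library 1 the list held 1 gain, and on removal of wild-type library 2 it held 0.

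Argonaute genes, which encode the small RNA binding proteins, held 1 gain and 1 loss among 18 (5.56% each way, against 8.61% and 18.2% of all features). ergo-1, the Argonaute of a class of endogenous siRNAs, had a lowest level of 29.9, a median of 60.6 and a highest of 78.4 normalized counts, against 90.3 and 97.5 in wild type (log2 change −0.64, SE 0.17, adjusted p = 0.00796). The call was lost on removal of either wild-type library, at changes of −0.69 without library 1 and −0.58 without library 2. It was also lost with the 10 libraries fitted as 1 group, so that differences between generations count as spread (adjusted p = 0.051). ppw-2, which encodes a secondary siRNA Argonaute, had a lowest level of 1094, a median of 1143 and a highest of 1292, against 1003 and 959.9 (log2 change 0.24, SE 0.08, adjusted p = 0.0379), and its call was lost on removal of wild-type library 1 (0.139) or 2 (0.282) and without any 1 of 4 descendant libraries (0.0554 to 0.063), with equal library totals (0.583) and with quantile normalization (0.519).

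Genes of nuclear RNAi and heterochromatin held 4 gains and 2 losses among 21 (19% and 9.52%, against 8.61% and 18.2% of all features). The median was 0.12, and with equal library totals the list held 0 gains and 3 losses. The gains numbered 1 on removal of either wild-type library. The largest change was a loss at hpl-1, a heterochromatin protein gene, with a lowest level of 35.5, a median of 44.1 and a highest of 64.9 normalized counts, against 130.2 and 154 in wild type (log2 change −1.56, SE 0.18, adjusted p = 2.57e-06). hrde-4 had a lowest level of 319, a median of 453 and a highest of 476, against 653 and 674 (log2 change −0.61, SE 0.11, adjusted p = 0.000458). Neither gene overlapped wild type in any of the 10 libraries. The gains were small. mes-3, which encodes a subunit of the Polycomb-like complex of the worm, had a lowest level of 71.3, a median of 82.7 and a highest of 89.3, against 58.5 and 53.7 (log2 change 0.49, SE 0.16, adjusted p = 0.0292). That call was lost on removal of either wild-type library, at changes of 0.55 without library 1 and 0.44 without library 2. The other gains were the histone methyltransferase genes set-25 (log2 change 0.46) and set-32 (0.27) and the nuclear RNAi factor nrde-2 (0.31).

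Germ granule components held 5 gains and 1 loss among 26 (19.2% and 3.85%, against 8.61% and 18.2% of all features). The median was 0.13, but with equal library totals the list held 0 gains and 1 loss. The gains numbered 2 on removal of wild-type library 1, 1 on removal of wild-type library 2 and 4 without F4 replicate 2. pgl-2, a paralogue of the core granule protein PGL-1 that overlaps fli-1 on the same strand, had a lowest level of 20.0, a median of 26.9 and a highest of 31.6 normalized counts, against 50.9 and 48.5 in wild type (log2 change −0.82, SE 0.19, adjusted p = 0.0033). Its call was lost on removal of wild-type library 1 (0.0612). meg-4 was higher (log2 change 0.73, SE 0.24, adjusted p = 0.0325) in 9 of 10 libraries. This call was lost on removal of either wild-type library, at changes of 0.53 without library 1 and 0.93 without library 2. meg-3 was not called (log2 change 0.31, SE 0.21, adjusted p = 0.297). deps-1, needed for granule integrity, had a lowest level of 271, a median of 332 and a highest of 373, against 225 and 257 (log2 change 0.44, SE 0.12, adjusted p = 0.00949), and lost its call on removal of wild-type library 1 (0.189). The other gains were pid-2, pid-4 and pid-5 (log2 changes 0.34, 0.38 and 0.23), whose products act in piRNA-dependent silencing.

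Genes of piRNA biogenesis held 2 gains and 2 losses among 15 (13.3% each, against 8.61% and 18.2% of all features, median 0.13). tofu-2 had a lowest level of 18.4, a median of 26.9 and a highest of 29.7 normalized counts, against 65.4 and 60.1 in wild type (log2 change −1.21, SE 0.18, adjusted p = 5.06e-05), without overlap. The other loss, tofu-1 (log2 change −0.35), lost its call on removal of wild-type library 1 (0.28) or 2 (0.0835), and the gain at pid-3 (0.35) was lost on removal of wild-type library 1 (0.321). The other gain was snpc-4, a transcription factor gene of piRNA loci (0.25). With equal library totals 0 members were called higher, without F4 replicate 2 there was 1 and without F4 replicate 1 there were 4.

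Known siRNA targets moved in both directions. The targets of the Argonaute ERGO-1 are duplicated and fast-evolving genes from which primary siRNAs are made. Of 18 measured, 6 were lower and 4 higher (33.3% and 22.2%, against 18.2% and 8.61% of all features, median −0.25). E01G4.5 had a lowest level of 29.1, a median of 213 and a highest of 1016 normalized counts, against 1952 and 1509 in wild type (log2 change −2.79, SE 0.49, adjusted p = 0.000255), a wide range without overlap. F39F10.4 had a lowest level of 19.8, a median of 25.5 and a highest of 49.4, against 141 and 145 (log2 change −2.18, SE 0.30, adjusted p = 1.8e-05), and the pseudogene T08B6.2 a lowest level of 3.09, a median of 53.2 and a highest of 107, against 131 and 120.3 (log2 change −1.59, SE 0.37, adjusted p = 0.00327). T08B6.2 lost its call on removal of wild-type library 1 (0.057), and likewise with the 10 libraries fitted as 1 group (0.11). On removal of wild-type library 1 the list held 2 gains and 4 losses, and on removal of wild-type library 2 it held 0 and 5. E01G4.7, W05H12.2 and K02E2.6 were also lower (−1.04, −0.56 and −0.41), and the gains at W04B5.1, ZK380.5, F55C9.3 and Y43F8B.9 were 0.26 to 0.55.

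Of 5 genes listed as targets of nuclear RNAi in the germline, 2 were lower (40%, against 18.2% of all features), both copies of F07B7.2. The copies had a lowest level of 204, a median of 306 and a highest of 645 and a lowest level of 166, a median of 340.4 and a highest of 689 normalized counts, against 763 and 714 and 745 and 722 in wild type (log2 change −1.09 at each). Reads of near-identical copies cannot be assigned with certainty, and both calls were lost on removal of wild-type library 1 (adjusted p = 0.206 and 0.235) or 2 (0.168 and 0.22). The call of 1 copy was also lost without any 1 of the 5 replicate 1 descendant libraries (0.0670 to 0.0722).

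Small RNAs against F-box B genes were lower as a family. F-box proteins bring substrates to ubiquitin ligases, and the F-box A and B families are large and recently expanded in this species. Of 40 F-box B genes that passed the filter, 32 were lower and 1 higher in the early descendants (median −1.21, against 0.01 over all features and 18.2% of all features lower). Their summed level was lowest 4671, median 5342 and highest 5745 normalized counts in the descendants, against 7056 and 7553 in wild type, with no overlap. fbxb-91 had a lowest level of 25.98, a median of 37.0 and a highest of 54.9, against 207 and 196 (log2 change −2.31, SE 0.17, adjusted p = 8.3e-09), fbxb-45 a lowest level of 45.9, a median of 57.3 and a highest of 74.8, against 193 and 242 (log2 change −1.84, SE 0.16, adjusted p = 1.12e-07), and fbxb-51 a lowest level of 4.08, a median of 5.54 and a highest of 10.36, against 38.2 and 43.8 (log2 change −2.08, SE 0.24, adjusted p = 3.09e-06). The 1 that was higher, fbxb-79, changed by 0.74 and was named after its value was seen. The count was 33 lower without F4 replicate 2, 23 on removal of wild-type library 1, 23 on removal of wild-type library 2, 33 with equal library totals and 31 with quantile normalization. Of the 40 genes, 27 are on chromosome II, and the sources do not say how reads of similar members were assigned.

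The F-box A and MATH families, which also encode adaptors of ubiquitin ligases, held calls in both directions. Of 62 F-box A genes 18 were lower and 8 higher (29% and 12.9%, against 18.2% and 8.61% of all features). The median was 0.02, which turned to −0.09 with equal library totals. fbxa-125 had a lowest level of 98.0, a median of 143 and a highest of 187 normalized counts, against 43.4 and 5.84 in wild type (log2 change 2.64, SE 0.32, adjusted p = 4.51e-06). Its change was 3.72 on removal of wild-type library 1 and 1.56 on removal of wild-type library 2. fbxa-61 had a lowest level of 1.86, a median of 45.1 and a highest of 134, against 166 and 161 (log2 change −2.02, SE 0.37, adjusted p = 0.00043), a call lost with the 10 libraries fitted as 1 group (0.0577), and fbxa-63 a lowest level of 5.58, a median of 12.9 and a highest of 20.6, against 61.4 and 67.7 (log2 change −1.97). On removal of wild-type library 1 the family held 14 losses and 4 gains, and on removal of wild-type library 2 it held 8 and 4. Of 33 MATH and BATH genes 6 were lower and 6 higher (18.2% each), with losses at math-31 (−2.51), bath-31 (−1.58) and math-44 (−1.34). Their gains numbered 2 on removal of wild-type library 1, 3 on removal of wild-type library 2 and 2 with equal library totals, and their losses 6, 5 and 7.

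**Figure D4:**
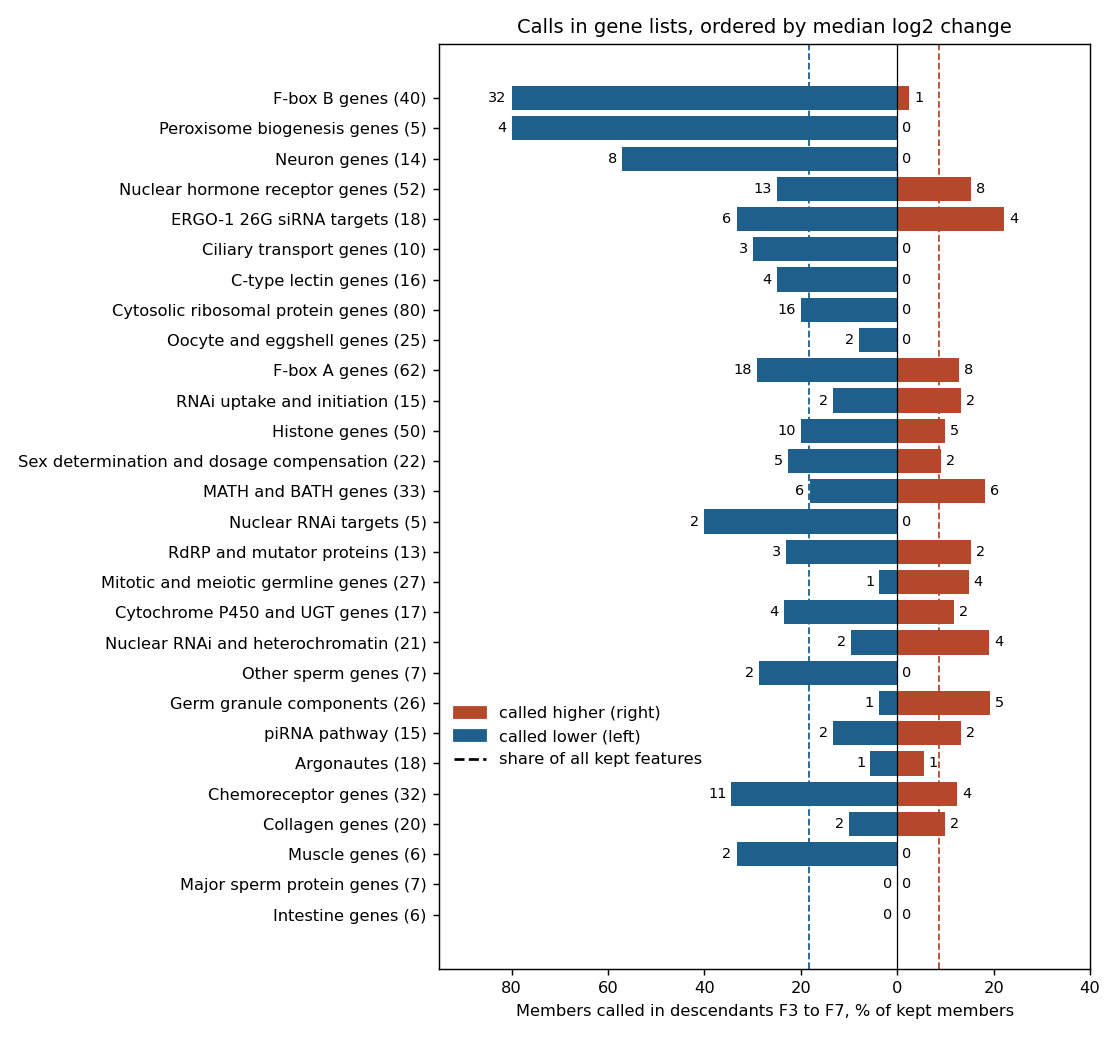
Bars give the share of kept members of each gene list with at least 5 kept (number kept in brackets) called lower (left) or higher (right) in the early descendants than in wild type, with counts at the bar ends and dashed lines at the shares over all 8869 features, 18.2% lower and 8.61% higher. F-box B, peroxisome and neuron genes reach furthest to the left, and no list reaches as far to the right.

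Neuron genes were lower in 57.1% of cases, against 18.2% of all features. The list was drawn up with earlier results of these data known, so this share is not an independent test. It holds jip-1, ckk-1, trp-4 and syd-2, which the planned neuron markers did not. Of 14 kept genes of the 26 in the neuronal list 8 were lower and 0 higher (median −0.85), with jip-1 and ckk-1 given above. unc-10, which encodes the presynaptic active zone protein RIM, had a lowest level of 25.98, a median of 36.02 and a highest of 56.9 normalized counts, against 356 and 409 in wild type (log2 change −3.22, SE 0.24, adjusted p = 1.46e-08). trp-4, a mechanosensory channel gene, had a lowest level of 66.3, a median of 295 and a highest of 385, against 548 and 562 (log2 change −1.23, SE 0.15, adjusted p = 5.95e-06). Both were below wild type in 10 of 10 libraries. The other losses were at ida-1, a dense-core vesicle gene (−1.39), rimb-1, whose protein binds RIM (−1.21), syd-2, a presynaptic scaffold gene (−1.10), and unc-17, the vesicular acetylcholine transporter gene (−0.61), all 4 named after their values were seen. The summed level of the 14 was lowest 409.5, median 770.9 and highest 946.6 in the descendants, against 2271 and 2508 in wild type. Under quantile normalization 7 were lower and 2 higher.

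Of 10 genes of ciliary transport 3 were lower (30%, against 18.2% of all features, median −0.17), dyf-3 far more than the others. dyf-2 had a lowest level of 3.93, a median of 5.60 and a highest of 7.595 normalized counts, against 15.0 and 12.3 (log2 change −0.82), and bbs-1 a lowest level of 2.47, a median of 4.26 and a highest of 7.67, against 9.26 and 12.8 (−0.78). Both levels are low. The call of dyf-2 was lost on removal of wild-type library 1 (adjusted p = 0.246) or 2 (0.12), and that of bbs-1 on removal of wild-type library 2 (0.221).

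Peroxisome biogenesis genes were lower in 4 of 5 cases kept of 11 (80%, against 18.2% of all features, median −1.21). That count held without either wild-type library, without F4 replicate 2 and under both other scalings. prx-11, a peroxin gene of peroxisome division that overlaps gale-1 on the same strand, had a lowest level of 1.58, a median of 6.16 and a highest of 15.0 normalized counts, against 311 and 173 in wild type (log2 change −4.46, SE 0.28, adjusted p = 9.9e-10). prx-13 and prx-14 encode proteins of the peroxisomal import machinery. prx-13 had a lowest level of 99.8, a median of 260.5 and a highest of 443, against 672 and 749 (log2 change −1.67, SE 0.24, adjusted p = 3.11e-05), and prx-14 a lowest level of 24.9, a median of 38.4 and a highest of 46.2, against 89.7 and 91.7 (log2 change −1.21, SE 0.17, adjusted p = 2.79e-05). No descendant library reached wild type at these 3 genes. prx-10 (log2 change −0.65) was the other loss, and prx-19 (0.00) was not called.

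In the list of sex determination and dosage compensation genes, 5 of 22 were lower and 2 higher (median 0.09). These are 22.7% and 9.09%, against 18.2% and 8.61% of all features. xol-1, the switch that reads the X chromosome dose, had a lowest level of 23.9, a median of 30.2 and a highest of 44.9 normalized counts, against 274 and 300.1 in wild type (log2 change −3.04, SE 0.23, adjusted p = 1.22e-08), without overlap. fem-3, which promotes male fate, had a lowest level of 6.29, a median of 13.9 and a highest of 17.3, against 28.9 and 33.9 (log2 change −1.03, SE 0.26, adjusted p = 0.006), and tra-1, the terminal regulator, a lowest level of 20.0, a median of 41.5 and a highest of 51.9, against 56.7 and 85.8 (log2 change −0.75, SE 0.22, adjusted p = 0.0141). On removal of wild-type library 2 the calls at fem-3 (adjusted p = 0.107) and tra-1 (0.332) were lost, and that at tra-1 was lost also with quantile normalization (0.058). On removal of wild-type library 1 the list held 4 losses and 0 gains, and on removal of wild-type library 2 it held 2 and 0. The other losses were fog-1 (−0.68) and tra-2 (−0.62), and the gains, at the dosage compensation genes dpy-21 (0.34) and dpy-28 (0.28), were not called with equal library totals.

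Nuclear hormone receptor and chemoreceptor genes held calls on both sides, where 18.2% of all features were lower and 8.61% higher. Of 52 nuclear hormone receptor genes 13 were lower (25%) and 8 higher (15.4%), with a median of −0.28, and the higher count was 3 on removal of wild-type library 1 and 4 on removal of wild-type library 2. nhr-64 had a lowest level of 3.07, a median of 9.24 and a highest of 34.7 normalized counts, against 157 and 106 in wild type (log2 change −3.14, SE 0.46, adjusted p = 4.2e-05), nhr-3 a lowest level of 10.1, a median of 18.2 and a highest of 30.8, against 103 and 92.8 (log2 change −2.11, SE 0.21, adjusted p = 4.52e-07), and nhr-1 a lowest level of 185, a median of 213 and a highest of 251, against 576 and 798 (log2 change −1.62, SE 0.12, adjusted p = 7.96e-09). The descendants were below wild type in all 10 libraries at each. Of 32 chemoreceptor genes 11 were lower and 4 higher (34.4% and 12.5%, median 0.16). These counts were 4 and 0 on removal of wild-type library 1 and 6 and 1 on removal of wild-type library 2. sra-35 had a lowest level of 42.7, a median of 52.6 and a highest of 65.2, against 207 and 231 (log2 change −1.96, SE 0.20, adjusted p = 6.11e-07), sre-36 changed by −1.48, and srw-55 by 1.55, a call lost on removal of wild-type library 1 (0.171).

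Ribosomal protein and histone genes were each lower in 20.0% of cases, near the 18.2% of all features. Of 80 cytosolic ribosomal protein genes 16 were lower and 0 higher (median −0.13, which turned to 0.05 with quantile normalization, when 13 were lower and 6 higher). rpl-34 had a lowest level of 15.0, a median of 33.2 and a highest of 55.7 normalized counts, against 105 and 113 (log2 change −1.58, SE 0.24, adjusted p = 4.89e-05), rps-4, which overlaps Y43B11AR.3 on the same strand, a lowest level of 29.4, a median of 39.9977 and a highest of 50.4, against 123 and 124 (log2 change −1.56), and rpl-20 changed by −1.29. The count was 9 on removal of wild-type library 1 and 8 on removal of wild-type library 2. Of 50 histone genes 10 were lower and 5 higher (against 8.61% of all features, median 0.06), with losses at his-38 (−1.88) and his-37 (−1.42), 5 and 6 losses and 2 and 1 gains with wild-type library 1 or 2 removed. his-47 had a lowest level of 56.5, a median of 159.8 and a highest of 1048, against 56.7 and 53.1 (log2 change 1.78, SE 0.60, adjusted p = 0.0322), and the call was lost on removal of wild-type library 1 (0.167) or 2 (0.196). Histone genes are near-identical copies, so their counts are uncertain. Of 4 ribosomal RNA genes 0 were called by limma in the pooled comparison, with 0 at an unadjusted p under 0.05 and 0 by edgeR or DESeq2. The pooled value averages opposite changes, since their medians against wild type were 0.65, 0.45, −0.49, −0.65 and −1.09 from F3 to F7. At F3 3 were called higher (against 4.1% of all features), and 3 were called lower at F6 (12.4%) and at F7 (12.6%). A falling slope was called at 3 (against 0.778%).

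C-type lectin genes were lower in 25% of cases and higher in 0%, against 18.2% and 8.61% of all features. Cytochrome P450 and glucuronosyltransferase genes were lower in 23.5% and higher in 11.8%, and collagen genes in 10% each way. Of 16 C-type lectin genes 4 were lower (2 on removal of either wild-type library), among them clec-119 (−2.01), clec-12 (−0.93) and clec-143 (−1.26, lost on removal of wild-type library 1, adjusted p = 0.113, or 2, 0.111). Of 17 cytochrome P450 and glucuronosyltransferase genes 4 were lower and 2 higher (3 and 0 on removal of wild-type library 1, 2 and 0 on removal of wild-type library 2), with cyp-33C11 at −1.85, cyp-33C2 at −1.39 and cyp-29A4 at 1.08 (lost on removal of wild-type library 1, 0.217, or 2, 0.0664). Of 20 collagen genes 2 were lower and 2 higher, and 1 was lower on removal of either wild-type library. col-38 had a lowest level of 4.99, a median of 8.98 and a highest of 17.1 normalized counts, against 101 and 78.2 in wild type (log2 change −2.73, SE 0.24, adjusted p = 9.78e-08), col-81 a lowest level of 71.9, a median of 188 and a highest of 579, against 41.1 and 53.1 (log2 change 1.87, SE 0.31, adjusted p = 0.000124), and col-71 a lowest level of 1075, a median of 1152 and a highest of 1406, against 688 and 673 (log2 change 0.79, SE 0.09, adjusted p = 1.89e-06).

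Small RNAs against genes that mark germline and somatic tissues are given beside these changes. Germline genes were higher in 14.8% and lower in 3.7% of cases, against 8.61% and 18.2% of all features. Oocyte and eggshell genes were lower in 8% of cases, other sperm genes in 28.6% and muscle genes in 33.3%. Of 27 germline genes 4 were higher and 1 lower (summed level lowest 5707, median 5892 and highest 6083 normalized counts in the descendants, against 5383 and 5277 in wild type), with 0 higher under equal library totals and 1 on removal of either wild-type library. glp-1, the Notch receptor of germline stem cells, had a lowest level of 72.3, a median of 89.4 and a highest of 109.8, against 155 and 156 (log2 change −0.79, SE 0.13, adjusted p = 0.000142), while htp-1 changed by 0.36 (lost on removal of wild-type library 2, 0.0722) and fbf-2 by 0.35 (lost on removal of wild-type library 1, 0.0501, or 2, 0.136). Of 25 oocyte and eggshell genes 2 were lower, the chitin synthase gene chs-1 (−0.54) and puf-5 (−0.30, lost on removal of wild-type library 1, 0.249), and their summed level overlapped between groups (lowest 5938, median 6744 and highest 6932 in the descendants, against 6707 and 6545 in wild type). Of 7 other sperm genes 2 were lower, spe-15 (−1.63) and spe-6 (−1.21, lost on removal of wild-type library 1, 0.105, or 2, 0.0586), and their summed levels overlapped as well. Muscle genes were lower in 2 of 6 cases, lev-11 (−1.02, lost on removal of wild-type library 2, 0.0957) and unc-54 (−0.90, lost on removal of wild-type library 1, 0.237, or 2, 0.191, and without any 1 of 7 descendant libraries, 0.0525 to 0.0655), at summed levels of 41.99 to 98.1 in the descendants and 72.9 and 79.4 in wild type. By limma 0 of 7 major sperm protein genes, 0 of 6 intestine genes and 0 of 1 other cuticle gene were called, with 1, 2 and 0 at an unadjusted p under 0.05, 1, 1 and 0 by edgeR and 0 in each by DESeq2. The intestine genes had a summed level of 51.9 to 153 in the descendants, against 45.1 and 71.8 in wild type. The part of tissue composition in the changes above was not tested.

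Each early generation was also set against wild type by itself, in contrasts that share the wild-type libraries. The numbers of features higher and lower were 364 and 1196 at F3 (4.1% and 13.5%, 17.6% in all), 570 and 1348 at F4 (6.43% and 15.2%, 21.6% in all), 506 and 1207 at F5 (5.71% and 13.6%, 19.3% in all), 354 and 1101 at F6 (3.99% and 12.4%, 16.4% in all) and 403 and 1114 at F7 (4.54% and 12.6%, 17.1% in all). At F4 the counts were 352 and 885 without F4 replicate 2. Leaving out 1 library of the generation or of wild type gave 912 to 1033 called at F3, 924 to 1084 at F5, 787 to 855 at F6 and 803 to 895 at F7. The median change of the F-box B genes was −1.35, −1.28, −1.12, −1.21 and −1.22 from F3 to F7, with 32, 24, 25, 25 and 24 called lower, while that of the neuron genes was −1.07, −1.11, −0.67, −0.49 and −0.30, with 8, 8, 7, 6 and 4 called lower. On removal of 1 library the F-box B count was 19 to 23 at F3 and the neuron count 3 to 5 at F6. The neuron list was drawn up with earlier results of these data known and holds ckk-1 and trp-4, so its course is not an independent test. The ERGO-1 targets had medians of −0.52, −0.28, −0.27, −0.12 and 0.31. Intestine genes had medians of 0.14, 0.01, 0.66, 0.46 and 1.15, with 0 of 6 called at F3, F4, F5 and F6 and 3 of 6 higher at F7 (against 4.54% of all features), a count of 0 to 2 with 1 library removed.

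Within the early descendants, few features had a called linear trend with generation. The change in log2 level per generation, fitted as a slope that uses no wild-type library, was called at 280 features (3.16%), 211 rising (2.38%) and 69 falling (0.778%), at 130 without F7 replicate 1 and at 261 without F4 replicate 2. A called slope does not show an even course. Gains that fell toward wild type included mppe-1, a metallophosphoesterase gene, with mean normalized counts of 2000.04, 1446, 969, 717 and 545 from F3 to F7, against 245 and 251 in wild type (slope −0.48 per generation, adjusted p = 2.12e-08). B0564.2 fell by the same measure, at 2707, 2147, 1905, 1550.2 and 1134 (slope −0.29, adjusted p = 0.000443), and so did Y94H6A.7 (slope −0.48, a call lost without F3 replicate 2, adjusted p = 0.0570, or F7 replicate 1, 0.0749). At C25D7.2, plk-3 and tpk-1 no slope was called. C25D7.2 had means of 981, 982, 1107, 1019 and 1009 (slope 0.01), plk-3 a slope of −0.06 and tpk-1 one of −0.10 per generation.

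Losses that rose toward wild type were at trp-4, with means of 83.3, 202, 295, 362 and 384 normalized counts from F3 to F7, against 548 and 562 in wild type (slope 0.52, adjusted p = 9.49e-07), at ckk-1 (slope 0.33), Y69A2AR.31 (0.38), prx-13 (0.38), ndx-2 (0.36) and fbxa-61 (0.66), each of them called. E01G4.5 had means of 83.6, 278, 183, 486 and 739 (slope 0.72, adjusted p = 0.00507), and the call was lost without F3 replicate 1 (0.0833) or F7 replicate 1 (0.0907). Of 18 ERGO-1 targets 10 had a called rising slope (55.6%, against 2.38% of all features) and 0 a falling one (against 0.778%), and 5 were rising without F7 replicate 1. By contrast xol-1 had means of 30.8, 35.4, 29.6, 30.2 and 28.5, a slope of −0.04 that was not called. Some features crossed the wild-type level. linc-12 had means of 9.24, 31.1, 48.9, 80.7 and 135, against 31.8 and 30.9 in wild type (slope 0.79, adjusted p = 0.000163), with like slopes at Y116F11A.1 (0.77) and at the feature of cel-mir-8199 (0.65). The pseudogene F31A9.4 rose with a slope of 0.67, a call lost without F7 replicate 1 (adjusted p = 0.0766), and its F7 libraries, at 231 and 99.3, lay on either side of wild type at 149 and 147. F44E7.5 took the opposite course to linc-12, at 249.5, 272, 77.4, 76.6 and 66.3, against 182 and 181 in wild type (slope −0.54), and so did both kept copies of the small-subunit ribosomal RNA gene rrn-1.1 (slopes −0.50 and −0.50), whose copies share reads.

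**Figure D5:**
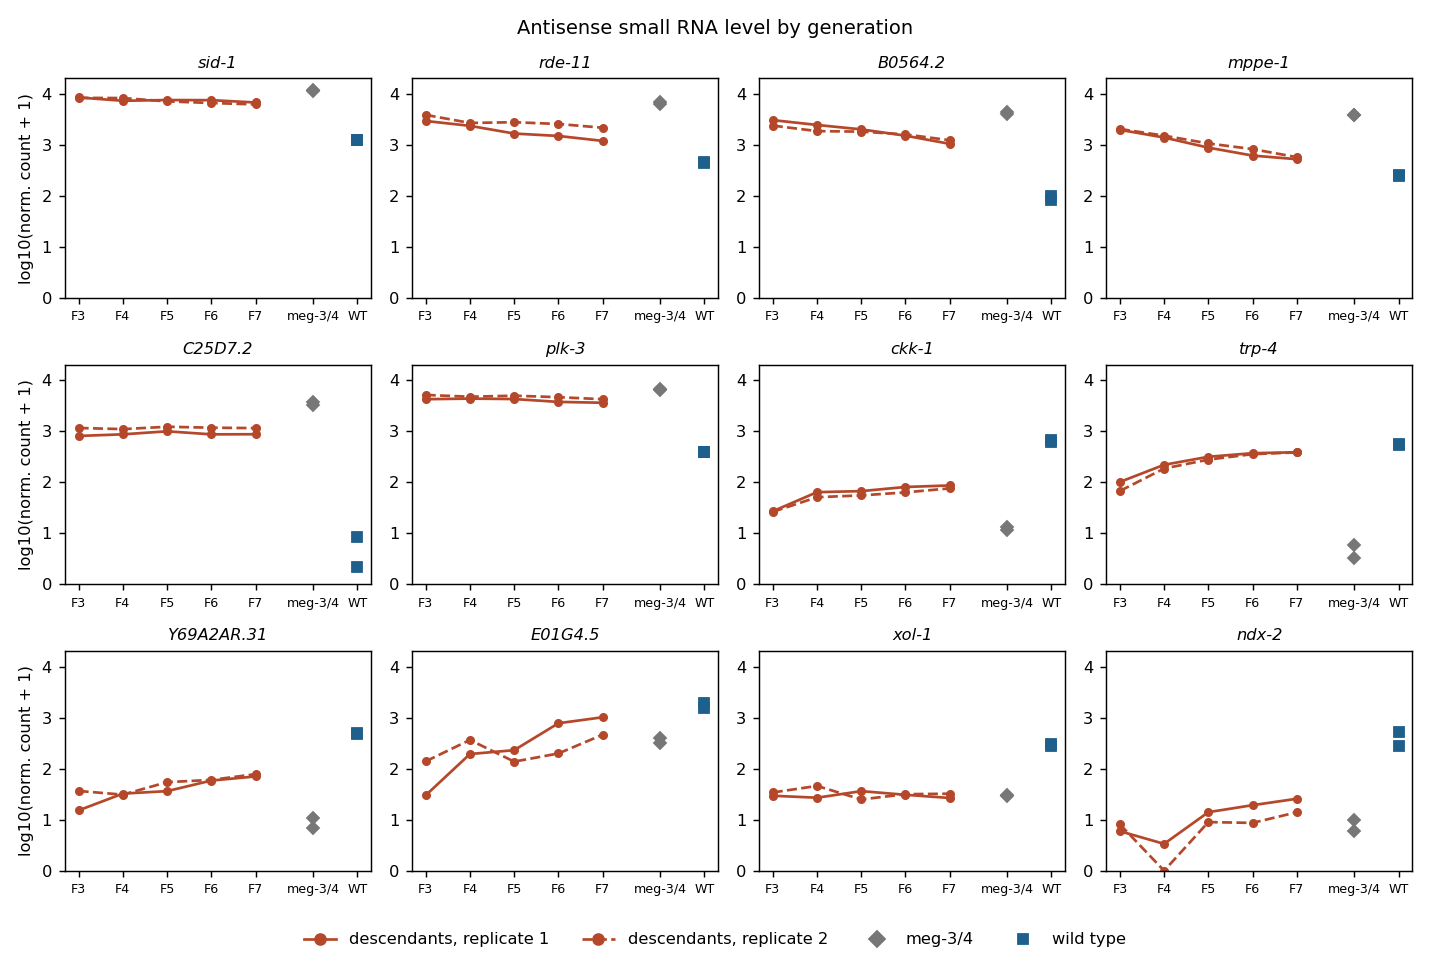
Small RNA level, as log10(normalized count + 1), of 12 features by generation in the 2 replicates of the early descendants (lines), with the meg-3/4 and wild-type libraries at the right; the features were picked after their values were seen. The called slopes are negative at rde-11, B0564.2 and mppe-1 and positive at trp-4, ckk-1, Y69A2AR.31, E01G4.5 and ndx-2, and levels at sid-1, C25D7.2, plk-3 and xol-1 have no called slope.

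Set against the meg-3/4 mutants themselves, the early descendants were more often higher than lower. Of 8869 features 1285 were called (14.5%), 813 higher (9.17%) and 472 lower (5.32%) in the descendants. Without meg-3/4 replicate 1 these were 532 and 199, and without replicate 2 the lower count was 309. With equal library totals they were 1293 and 211, and without F4 replicate 2 they were 882 and 528. The 5 largest called gains among features that averaged 50 or more were led by trp-4, with a lowest level of 66.3, a median of 295 and a highest of 385 normalized counts in the descendants, against 2.21 and 4.91 in meg-3/4 (log2 difference 4.82, SE 0.15, adjusted p = 4.26e-14), and aagr-1, an acid alpha-glucosidase gene, followed with a lowest level of 118, a median of 267 and a highest of 469, against 11.06 and 6.87 (4.24). At cdh-1, a cadherin gene, the descendants had a lowest level of 89.2, a median of 290.4 and a highest of 358, against 6.64 and 8.84 (4.20), at the collagen gene col-111 a lowest level of 44.5, a median of 156 and a highest of 237, against 3.32 and 2.95 (4.08), and at Y51H7C.12 a lowest level of 181, a median of 288 and a highest of 321, against 11.06 and 12.8 (4.05). The descendants of these 5 lay above both mutant libraries without overlap, and cdh-1, col-111 and Y51H7C.12 were not called against wild type. Without F4 replicate 2, col-111 was called lower than wild type (log2 change −1.20, adjusted p = 0.0148), and likewise with equal library totals (−1.16, 0.0319).

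Lower than in meg-3/4 were the pseudogene F07H5.4, with a lowest level of 0.949, a median of 4.91 and a highest of 97.9 normalized counts in the descendants, against 383 and 489 in meg-3/4 (log2 difference −4.90, adjusted p = 2.9e-05), Y22D7AL.7, with a lowest level of 175, a median of 261 and a highest of 475, against 3196 and 2495 (−3.32), E01G4.3 (−3.31), the small nucleolar RNA feature ZK185.9 (−3.08) and F26A3.4 (−2.56). None of these 5 was called against wild type with all libraries, but ZK185.9 was called higher without F4 replicate 2 (log2 change 1.05, adjusted p = 0.0231) and with quantile normalization (1.10, 0.0393). The features with the largest gains over wild type were spread in this comparison. C25D7.2 was at 3655 and 3298 in meg-3/4, above every descendant library (−1.78, adjusted p = 0.000199), sid-1 at 11889 and 11329 (−0.66) and rde-11 at 6911 and 6404 (−1.57), while F26D11.1 at 1766 and 1505 was not called (−0.47). Y69H2.10 was at 5.53 and 2.95 in meg-3/4, below every descendant library (3.80, adjusted p = 5.76e-10) and both wild-type libraries. Of the losses, xol-1 at 29.9 and 27.5, ndx-2 at 8.85 and 4.91 and hlh-11 at 27.7 and 20.6 in meg-3/4 were not called different, whereas ckk-1 at 12.17 and 10.8, dyf-3 at 5.53 and 5.89 and klf-1 at 11.06 and 6.87 were lower in meg-3/4 than in the descendants (1.86, 1.98 and 2.46). All 4 ribosomal RNA genes were lower in the descendants than in meg-3/4 (median −1.72), against 5.32% of all features.

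Compared with the later descendants, the early descendants were again lower more often than higher. Of 8869 features 1832 were called (20.7%), 662 higher (7.46%) and 1170 lower (13.2%) in the early descendants. The higher count was 1043 without F10 replicate 2 and 439 without F25 replicate 1. With equal library totals 1121 were higher and 907 lower, which turned the direction. Quantile normalization gave 1005 and 1045, and DESeq2 395 and 999. Without F4 replicate 2 there were 689 higher and 1146 lower. Levels in the 8 later libraries were widely spread. B0564.2 had a lowest level of 1042, a median of 1829.8 and a highest of 3041 normalized counts in the early descendants, against 62.0 to 593 in the later ones (log2 difference 3.73, adjusted p = 1.59e-15), with no overlap, and F26D11.1 reached 512 at most in the later ones (2.85). F41C3.8 had a lowest level of 108, a median of 135 and a highest of 167 in the early descendants, against 7.23 to 92.9 in the later ones and 12.15 and 11.7 in wild type (2.29), and T03D3.5 (2.23) and Y92H12BL.5 (2.21) complete the 5 largest gains among called features that averaged 50 or more.

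The 5 largest losses by the same criteria were at ndx-2, with a lowest level of 0, a median of 7.81 and a highest of 24.7 normalized counts in the early descendants, against 35.8 to 177 in the later ones (log2 difference −3.01, adjusted p = 8.69e-10), fbxa-61 (−2.46), dyf-3 (−2.40), ckk-1 (−2.39) and K07A1.3 (−2.37). Every later library exceeded every early one at these 5. Of 40 F-box B genes 32 were lower in the early than in the later descendants and 0 higher (median −0.66, against 0.01 over all features). Of 18 ERGO-1 targets 12 were lower and 1 higher (median −0.41), of 14 neuron genes 8 and 2 (−0.46), and of 50 histone genes 3 and 13 (0.14), where 13.2% of all features were lower and 7.46% higher. The counts of the neuron list are no independent test here either, since it was drawn up with earlier results of these data known. C25D7.2 overlapped between the sets, at 129 to 1039 in the later ones (0.82, adjusted p = 0.00288).

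The 10 early libraries also fell into 2 sets by replicate number. With generation as a factor, replicate 2 differed from replicate 1 at 225 features (2.54%), 124 higher (1.4%) and 101 lower (1.14%) in replicate 2, at 420 features without F4 and at 127 without F5. At seld-1, the selenophosphate synthetase gene, which overlaps afmd-2 on the same strand, the 5 libraries of replicate 2 held 2844 to 3473 normalized counts, against 88.3 to 109 in replicate 1 (log2 difference 4.97, adjusted p = 4.81e-11), with 86.8 and 78.8 in wild type. Replicate 1 was near wild type and replicate 2 far above it, and the pooled comparison did not call the gene (2.75, adjusted p = 0.307). The later descendants, which this contrast did not use, held 3079 to 3754 in replicate 2 and 91.2 to 137 in replicate 1. bath-19 held 216 to 333 in replicate 2 and 36.9 to 47.3 in replicate 1 (2.64), against 33.0 and 36.2 in wild type, but its later libraries overlapped between the replicates. F42A9.8 (2.19), C46F11.6 (2.03) and ZK1010.4 (1.95) were likewise higher in replicate 2.

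In the other direction cdk-14, a cyclin-dependent kinase gene, held 4.99 to 59.6 normalized counts in replicate 2, against 135 to 328 in replicate 1 (log2 difference −3.06, adjusted p = 1.45e-05), with 545 and 582 in wild type. The later libraries held 90.7 to 224 in replicate 2 and 328 to 687 in replicate 1, again without overlap. his-47 (−1.94), F22H10.10 (−1.55), col-45 (−1.50) and aldo-1, an aldolase gene (−1.46), were also lower in replicate 2. Of the 20 largest gains and losses against wild type, 6 differed between the replicates. At ZC190.8 replicate 2 held 158 to 190.5 and replicate 1 47.3 to 72.1, and at klf-1 76.6 to 178 and 25.98 to 74.1. Each of these libraries stayed on its side of wild type, as the criteria for naming the features require.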

How the data were processed

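The deposited table gives 46726 features in 24 libraries. Per the submitters' processing notes reads passed through cutadapt, Bowtie, featureCounts and DESeq2. The sources used here name no genome build, annotation, strand setting or treatment of multiply mapping reads. The authors' values are a signal, counts divided by size factors, and each of the 386038 values above 0 came out as a whole number of reads (tolerance 0.01). In 26 of 28 microRNA genes the feature on the opposite strand was higher, with summed means of 418827 on the opposite strand and 4.77 on the gene's own, so reads were taken as antisense. Symbols and positions come from Ensembl release 115 (WBcel235, 46364 features matched and 362 not). No sequence is printed.

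From these values, limma 3.58.1 (R 4.3.3) was fitted with trend to log2(normalized count + 5), which understates the change of low features. The fit held 24 libraries in 12 groups, the hrde-1; meg-3/4 libraries included for the spread and the filter alone. The 8869 features with at least 10 in at least 2 libraries were tested, two-sided, with Benjamini-Hochberg adjustment at 0.05. The count tests of edgeR 4.0.16 and DESeq2 1.42.0 on the recovered reads were alternatives, and the scripts were tested on simulated data. Same-numbered libraries of the early generations deviated together from their generation means (10 pairs over 4469 features, correlations 0.104 to 0.665), but hardly with wild type (−0.02 to 0.09). With the later generations the correlations were −0.05 to 0.43. Whether lines of descent or differences in library make-up lie behind the shared deviations was not tested. The members, the 30 gene lists and the tests were chosen with earlier results of these data known. The text names the 10 largest called changes in each direction with a mean of at least 50 and no overlap, up to 3 called members of each list, 5 features in each direction of every other comparison, and in any case sid-1, rde-11, hrde-1, meg-4 and meg-3. Other list members were named after their values were seen.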

Additional observations from a re-analysis of the deposited data

Results flagged for a closer look

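Within the 10 early descendant libraries, 93 values were searched for a library far from the rest, and 10 were found. Chance flags about 1 in 20 groups, and the values share libraries. The shallow F4 replicate 2 stood apart in 7 of them, and the part of its depth was not tested. It had 395527 reads, against 2127219 in the next library. It was lowest at hrde-4 (319 normalized counts, next 402) and tra-1 (20.0, next 36.6). It was highest at fbf-2 (569, next 487), spe-6 (9.98, next 4.74), fbxb-91 (54.9, next 41.2) and bath-31 (105, next 72.4). F3 replicate 2 was highest at F26D11.1 (2366, next 1497) and nhr-64 (34.7, next 20.0), and F5 replicate 1 at bbs-1 (7.67, next 4.99).

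Of the 20 features with the largest gains and losses, 6 differed between replicate numbers in a test of that difference. The log2 difference of replicate 2 minus replicate 1 was 0.40 at C25D7.2, 0.65 at F26D11.1, −0.84 at Y38C1AB.5, 1.57 at ZC190.8, 1.13 at hlh-11 and 1.30 at klf-1. Another 4 changed with generation, with slopes per generation of −0.29 at B0564.2, 0.36 at ndx-2, 0.33 at ckk-1 and 0.38 at Y69A2AR.31.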

How the results depend on the processing

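Against wild type, the count of higher features was 764, with 457 without a filter, 306 with equal library totals, 1333 with quantile normalization and 1225 with edgeR. Without 1 library it was 278 to 865, and the lower count 936 to 1785, the lowest in both without a wild-type library. Against meg-3/4, equal totals gave 1293 higher and 211 lower, and leaving out 1 library 532 to 882 higher and 199 to 588 lower. Against later descendants the higher count was 365 without a filter, 395 with DESeq2, and 439 to 1043 without 1 library. Equal totals turned the direction, with 1121 higher and 907 lower, and quantile normalization gave 1005 and 1045. Without 1 library the counts called were 912 to 1033 at F3, 1056 to 2332 at F4, 924 to 1084 at F5, 787 to 855 at F6, 803 to 895 at F7 and 130 to 387 for the slope. edgeR called 2196 at F6 and 370 between replicates, where limma called 420 without F4 and 127 without F5. With both shallow libraries left out, chosen after seeing the data, 1045 were higher and 1872 lower.

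The main fit takes the 10 early libraries as separate, though same-numbered ones deviated together. With the replicate number as a block, 847 features were higher and 1658 lower than wild type, and no tallied call changed. A block takes the shared deviation out of the spread, so it cannot show what that deviation does to the calls. With the early libraries averaged to 1 value for each replicate number, 1048 were higher and 1916 lower, and 91 of 92 named values kept direction and call. Of 3100 values of named features under the alternatives, 2990 were tallied as kept, 110 lost the call and 0 reversed. In both tallies a change of sign at a feature called in neither fit counted as kept. Removal of wild-type library 1 bore on 92 of the 3100 values, and so did removal of wild-type library 2. Each feature was tallied only in the comparison that named it, so cdk-14, col-111 and ZK185.9 were not tallied against wild type. The calls lost were 21 and 20 on removal of wild-type library 1 or 2, 12 without a filter, 7 with equal library totals, 7 with the 10 descendant libraries as 1 group, 5 with 1 added to the counts and 4 with quantile normalization. The causes were not tested. A group of 2 wild-type libraries limits every comparison with them, and at low counts F4 replicate 2 cannot resolve levels under 15.0.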
